A study of Homo sapiens with 36 samples.

Results

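The members of this set are 9 human genes for glucose transporters, SLC2A1, SLC2A2, SLC2A3, SLC2A5, SLC2A6, SLC2A10, SLC2A12, SLC2A13 and SLC5A1, and each was found by its symbol in a table of 60591 genes. mRNA was counted in 18 libraries of 2 colorectal adenocarcinoma cell lines, Caco-2 and HT-29, in 6 groups with 3 replicates in each. In each line, cells were kept for 24 h without treatment, with 300 µM cobalt chloride (CoCl2), or with 5 µM of oxyquinoline derivative 4896-3212 (OD, labelled Oxy). CoCl2 and OD are chemical activators of signaling through the hypoxia inducible factor (HIF). The labels call the controls untreated, while the protocol gives them 0.5 µl of DMSO, the solvent of OD, per ml of medium. Per the study's methods, which describe Caco-2, DMSO was added to the CoCl2 medium too, but the amount stated there differs from that in the labels. Caco-2 cells had been left to differentiate for 21 days, so cell line and culture state cannot be told apart in any comparison between the lines. Each line is a single tumor line, and replicates are separate cultures of it as far as the series states.

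The members of this set belong to 2 families of sugar transport proteins. The SLC2A genes encode the GLUT proteins, most of which let hexoses pass down their gradient. SLC2A13 differs, since its protein carries myo-inositol with protons. SLC5A1 encodes SGLT1, which carries glucose into the cell together with sodium. In the absorptive cell of the small intestine, SGLT1 takes up glucose and GLUT5 (SLC2A5) takes up fructose at the brush border, and GLUT2 (SLC2A2) releases both sugars on the basolateral side. GLUT1 (SLC2A1) and GLUT3 (SLC2A3) are high affinity glucose transporters of many tissues and tumors, and both genes are textbook targets of HIF.

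The mRNA libraries held from 12925719 to 22332639 counts. The 7 epithelial markers examined (EPCAM and keratins among them) summed to between 5100 and 10200 CPM over the groups, where CPM is the count scaled to 1000000 counts of a library. The 8 enterocyte markers summed to between 3520 and 5270 CPM in Caco-2 and to between 136 and 205 CPM in HT-29. In HT-29, 2 of 8 in the control group and 3 of 8 in each treated group stayed at or under the floor of 3 counts per library. In controls the sum was mostly APOA1 (2545 CPM) and DPP4 (817.2 CPM) in Caco-2, and mostly DPP4 (147.8 CPM) in HT-29. All 8 had higher means in Caco-2 controls than in HT-29 controls. In contrast, the 7 colonic and goblet cell markers summed to between 123 and 311 CPM in Caco-2 and between 1220 and 2210 CPM in HT-29. In HT-29 controls this sum was mostly LGALS4 (848.5 CPM) and KRT20 (320.9 CPM). CEACAM5, CEACAM6 and TFF3 went the other way, at 19.83, 60.52 and 40.65 CPM in Caco-2 controls against 9.068, 21.3 and 10.56 CPM in HT-29 controls. In both lines the OD groups held the highest sums of this last list. Not all its members rose, since mean TFF3 was lower with OD than in controls in both lines. So were LGALS4 in Caco-2, and MUC2 and SPDEF in HT-29. Of 11 immune, endothelial and stromal markers, 6 to 8 were at or under the floor in every group, and the sum was 2.76 to 40.7 CPM. The part of these marker levels in the results that follow was not tested. In bulk RNA, fewer cells with a transcript and less transcript per cell cannot be told apart.

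All 9 genes are protein coding. On GRCh38, in the GENCODE release 44 annotation, SLC2A1 (ENSG00000117394) lies on chromosome 1 at 42925353 to 42958893 on the minus strand. SLC2A3 (ENSG00000059804) lies on chromosome 12 at 7919230 to 8019007 on the minus strand, near its close paralog SLC2A14 (ENSG00000173262) at 7812512 to 7891148 on the same strand. SLC2A2 (ENSG00000163581) lies on chromosome 3 at 170996347 to 171026743, and SLC2A5 (ENSG00000142583) on chromosome 1 at 9035106 to 9088478, both on the minus strand. SLC2A6 (ENSG00000160326) lies on chromosome 9 at 133471094 to 133479127 on the minus strand, and SLC2A10 (ENSG00000197496) on chromosome 20 at 46709649 to 46736347 on the plus strand. SLC2A12 (ENSG00000146411) lies on chromosome 6 at 133987581 to 134052624 and SLC2A13 (ENSG00000151229) on chromosome 12 at 39755025 to 40106089, both on the minus strand. SLC5A1 (ENSG00000100170) lies on chromosome 22 at 32043261 to 32113029 on the plus strand. SLC2A12 overlaps the coding gene TBPL1, and SLC2A13 overlaps C12orf40, each on the opposite strand. Whether the authors' counting used strand is not given in the sources used here, so reads of such pairs may not be separated.

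Promoter sequence was available from RefSeq (GRCh38.p14) for 8 of the 9 genes. SLC2A3 had no entry, so its promoter was not searched. The core of the HIF binding site, ACGTG or GCGTG, was searched on both strands of the 200 bases that end 50 bases before the RefSeq start. It was present in 3 of the 8 windows, those of SLC2A6, SLC2A10 and SLC5A1, against 35.8% of 35116 promoters. The antioxidant response element TGACNNNGC was found in the window of SLC5A1 alone, against 8.27% of promoters. The windows of 4 genes are given because their mRNA moved in different directions: SLC2A1 rose with CoCl2 in both lines, SLC2A2 fell with both agents in Caco-2, SLC2A10 fell with CoCl2 in HT-29, and SLC2A6 rose with OD in HT-29. They are chr1:42958919-42959118, chr3:171026771-171026970 and chr9:133479150-133479349 on the minus strand, and chr20:46709399-46709598 on the plus strand, each written 5′ to 3′ with matches to the HIF core in capitals.
SLC2A1: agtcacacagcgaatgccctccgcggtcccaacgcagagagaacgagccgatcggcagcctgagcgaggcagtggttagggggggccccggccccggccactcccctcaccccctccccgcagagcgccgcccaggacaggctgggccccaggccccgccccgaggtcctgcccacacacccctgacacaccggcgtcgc
SLC2A2: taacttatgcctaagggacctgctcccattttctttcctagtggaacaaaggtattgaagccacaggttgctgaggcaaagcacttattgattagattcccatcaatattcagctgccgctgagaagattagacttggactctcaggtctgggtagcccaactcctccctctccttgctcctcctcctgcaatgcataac
SLC2A6: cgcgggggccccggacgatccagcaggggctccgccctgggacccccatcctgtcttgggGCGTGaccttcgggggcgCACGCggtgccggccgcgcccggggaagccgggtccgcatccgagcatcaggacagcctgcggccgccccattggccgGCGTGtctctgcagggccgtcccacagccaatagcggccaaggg
SLC2A10: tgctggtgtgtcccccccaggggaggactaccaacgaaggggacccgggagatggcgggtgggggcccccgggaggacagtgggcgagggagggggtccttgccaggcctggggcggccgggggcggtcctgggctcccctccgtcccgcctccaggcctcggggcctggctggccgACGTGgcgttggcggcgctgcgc
The window of SLC2A6 held 3 matches, which begin 190, 172 and 94 bases before the start, and that of SLC2A10 held 1, at 73 bases. A match is only a string of letters in this window, and its absence from the windows of SLC2A1 and SLC2A2 leaves the rest of each gene unexamined.

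The first question was which of the 9 transporters each line expresses before treatment. To compare genes with each other, CPM was divided by gene length in kilobases (RPKM). In control Caco-2 cells SLC2A3 came first at 55.4 ± 1.57 RPKM (SD, n = 3 here and below), and SLC2A1 followed at 38.3 ± 1.24 RPKM. SLC2A5 at 1.82 ± 0.468 RPKM and SLC2A2 at 1.80 ± 0.159 RPKM overlapped. SLC2A6 followed at 0.858 ± 0.211 RPKM, then SLC5A1, SLC2A13 and SLC2A10 at 0.311, 0.271 and 0.244 RPKM, each overlapping its neighbor, and SLC2A12 came last at 0.0396 RPKM. Thus, the sodium coupled transporter of the brush border was among the rarest of the 9 in the line with the higher enterocyte marker sum. In control HT-29 cells SLC2A1 came first at 107 ± 5.81 RPKM, and SLC5A1 was second at 9.65 ± 0.234 RPKM. SLC2A10, SLC2A12 and SLC2A6 followed at 1.87, 1.01 and 0.705 RPKM, without overlap between neighbors. SLC2A2, SLC2A13 and SLC2A3 overlapped in turn, at 0.262, 0.207 and 0.174 RPKM, and SLC2A5 was at 0.00324 RPKM, with at most 1 count in any library.

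The control groups of the 2 lines were compared over all 18 libraries with edgeR's quasi-likelihood test. A call needed a Benjamini-Hochberg adjusted p (FDR) under 0.05 together with a log2 fold change over 1 in either direction. Of all genes tested, 45.8% were called here, and 7 of the 9 transporters were. SLC2A5 and SLC2A12 passed the filter on low counts only through the line where each is higher, so both calls are a description. SLC2A3 was higher in Caco-2 by 8.34 on the log2 scale (SE 0.29, FDR 1.8e-23) and SLC2A2 by 2.65 (SE 0.26, FDR 3.68e-11). SLC2A5 was at least 72.5-fold higher in Caco-2, with the 3 HT-29 controls, all at 0 or 1 count, set to the floor of 3 counts per library. Conversely, SLC5A1 was lower in Caco-2, with a log2 difference of -5.04 (SE 0.13, FDR 7.7e-27). SLC2A12 (-4.72, SE 0.30), SLC2A10 (-3.003, SE 0.23) and SLC2A1 (-1.57, SE 0.07) were lower in Caco-2 too, all on the log2 scale. SLC2A6 (0.22, SE 0.23) and SLC2A13 (0.28, SE 0.22) were not called.

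**Figure D1:**
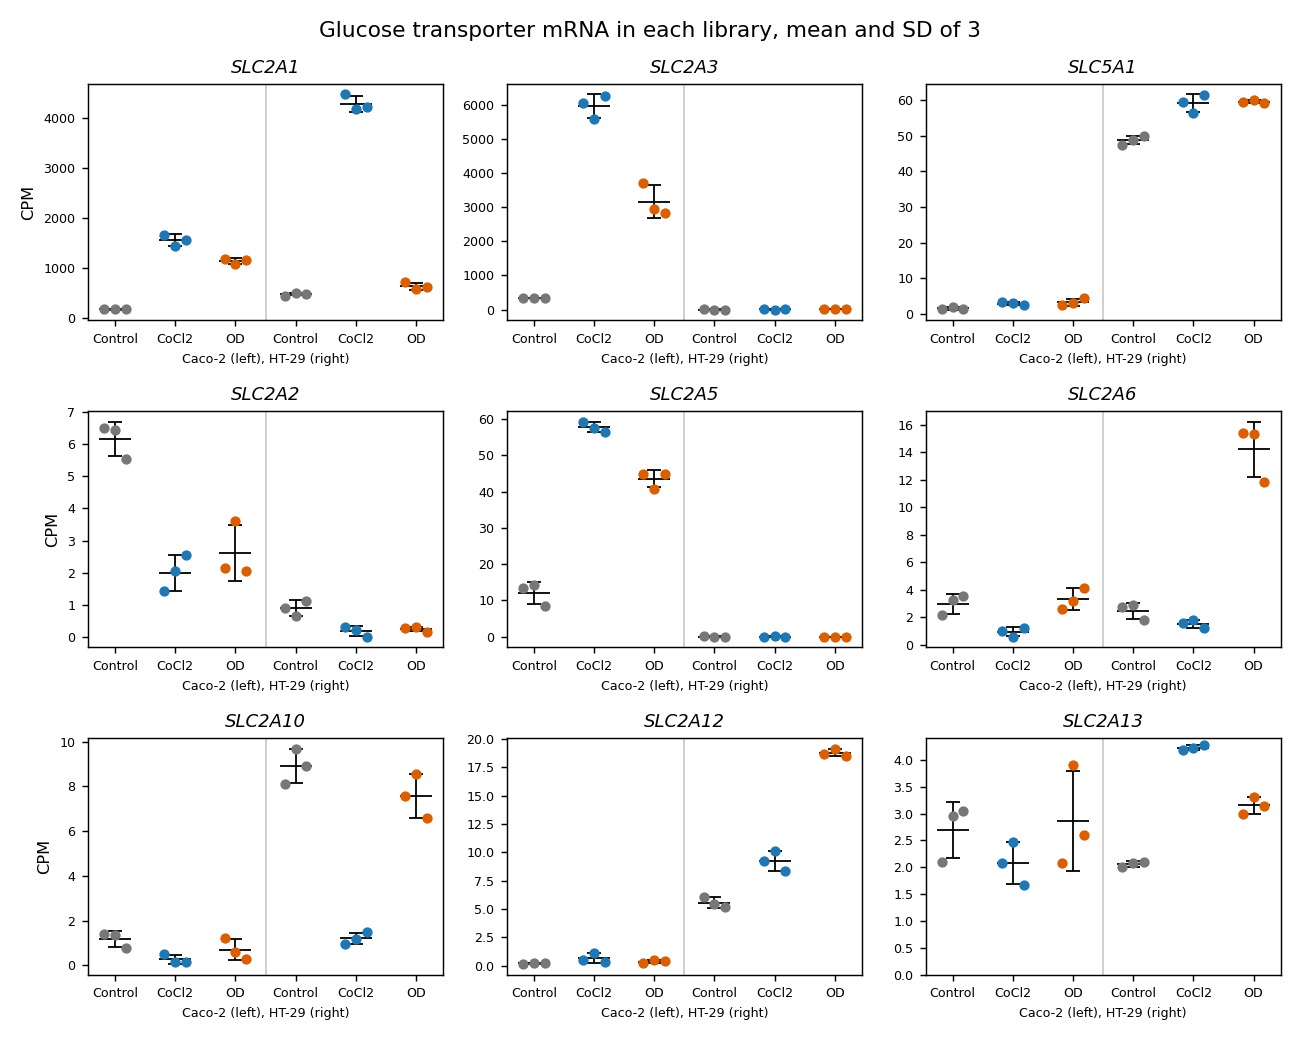
CPM (linear axis, own range per panel) of the 9 transporters in each library, with Caco-2 to the left and HT-29 to the right of the grey line. Points are libraries (grey control, blue CoCl2, orange OD), and black bars are the mean and SD of 3. SLC2A1 reached 4278 CPM on average with CoCl2 in HT-29, SLC2A3 reached 5968 CPM with CoCl2 in Caco-2, and SLC2A6 stood out with OD in HT-29 at 14.2 CPM.

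SLC2A1 rose strongly with CoCl2 in both lines, and with OD mainly in Caco-2. In Caco-2 the 3 controls held 165, 165 and 175 CPM, the CoCl2 libraries 1658, 1434 and 1563 CPM, and the OD libraries 1178, 1077 and 1144 CPM. In HT-29 the controls held 441, 487 and 484 CPM, the CoCl2 libraries 4464, 4166 and 4205 CPM, and the OD libraries 712, 572 and 606 CPM. Groups did not overlap in either line, but the OD libraries of HT-29 lay close to their controls. The log2 fold change with CoCl2 was 3.20 (SE 0.08, FDR 3.4e-20) in Caco-2 and 3.18 (SE 0.06, FDR 4.6e-25) in HT-29. The difference between these was -0.13 (SE 0.10, FDR 0.32, HT-29 minus Caco-2). With OD it was 2.75 (SE 0.08, FDR 1.47e-18) in Caco-2 and 0.42 (SE 0.06, FDR 4.68e-07) in HT-29, the latter under the fold threshold. This difference between lines was called, at -2.35 (SE 0.10, FDR 9.4e-19), where 15.2% of all genes were called. Between the 2 agents, SLC2A1 was higher with CoCl2 by 2.76 (SE 0.06, FDR 1.69e-23) in HT-29 and by 0.45 (SE 0.07, FDR 1.65e-05, not called) in Caco-2.

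SLC2A3, the gene of the neuronal type transporter GLUT3, was the most abundant of the set in Caco-2 and rose further with both agents. The Caco-2 controls held 345, 326 and 340 CPM, the CoCl2 libraries 6055, 5587 and 6263 CPM, and the OD libraries 3712, 2961 and 2832 CPM. The 3 groups did not overlap. The log2 fold change was 4.15 (SE 0.10, FDR 1.52e-20) with CoCl2 and 3.23 (SE 0.10, FDR 2.11e-18) with OD, which put SLC2A3 at rank 29 and 17 of 16034 genes ordered from the largest rise. CoCl2 exceeded OD by 0.91 (SE 0.09, FDR 7.0e-09), just under the fold threshold, and by 1.04 without replicate 1 of each group, where the difference was called. Since SLC2A14 is nearly identical in sequence, reads could be split between the genes. SLC2A14 itself rose by 3.10 (SE 0.12) and 2.13 (SE 0.12) in Caco-2, and the sum of both genes rose by 4.11 with CoCl2 and 3.19 with OD.

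HT-29 held SLC2A3 near the lower limit of detection. Controls held 35, 3 and 20 counts, CoCl2 libraries 75, 10 and 20 counts, and OD libraries 140, 44 and 66 counts. Replicate 1 was the highest and replicate 2 the lowest in every group. Control and CoCl2 libraries overlapped, whereas all OD libraries lay above the controls. In CPM, each CoCl2 library lay above the control of the same number. The log2 fold change was 1.43 (SE 0.58, FDR 0.0262) with CoCl2. This call was lost without replicate 3 (FDR 0.105), with library size scaling alone (log2 fold change 0.80, FDR 0.199) and in DESeq2 (FDR 0.284). With OD it was 2.21 (SE 0.49, FDR 0.00031), a call lost in DESeq2 (FDR 0.0969). Without replicate 1, the log2 fold changes were 1.14 (FDR 0.0389) with CoCl2 and 2.56 (FDR 1.01e-06) with OD. The CoCl2 response was lower in HT-29 than in Caco-2 by a log2 difference of -2.82 (SE 0.64, FDR 0.0004), a comparison with 21.6% of genes called, while the OD responses differed by -1.04 (SE 0.56, FDR 0.138, not called). The latter was called without replicate 2 (-1.26, FDR 0.0467), without a filter on low counts (-1.05, FDR 7.22e-05) and with a replicate block. Other genes abundant in Caco-2 were rare in HT-29, with 0 to 3 counts of AFP, 0 to 5 of APOB, 0 to 1 of ALB and 1 to 17 of APOA1 per HT-29 library (all 4 chosen after their values were seen). Carryover of Caco-2 RNA into these few SLC2A3 counts was not tested.

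The fructose transporter gene SLC2A5 rose in Caco-2 and was hardly present in HT-29. In Caco-2, controls held 13.5, 14.2 and 8.52 CPM, CoCl2 libraries 59.3, 57.6 and 56.4 CPM, and OD libraries 44.8, 40.8 and 45.0 CPM. The lowest treated library was well above the highest control. The log2 fold change was 2.25 (SE 0.12, FDR 9.0e-14) with CoCl2 and 1.84 (SE 0.12, FDR 1.41e-11) with OD. The 2 agents differed by 0.41 (SE 0.11, FDR 0.00345), under the fold threshold. In HT-29 the 9 libraries had 0 or 1 count, so no response was detectable at this depth and the gene was not tested there.

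SLC2A2, which encodes the low affinity transporter of the basolateral membrane, fell with both agents in Caco-2 and was close to the floor in treated HT-29 cells. In Caco-2, controls held 6.52, 6.44 and 5.54 CPM, CoCl2 libraries 1.42, 2.04 and 2.54 CPM, and OD libraries 2.15, 3.60 and 2.05 CPM. All treated libraries lay under all controls, and the 2 agents overlapped. SLC2A2 decreased by 1.59 (SE 0.24, FDR 3.06e-06) with CoCl2 and by 1.23 (SE 0.23, FDR 8.57e-05) with OD on the log2 scale. With limma on the deposited log2 values, where 1 is added before the logarithm, both falls were under the fold threshold (-0.85 and -0.70). In HT-29, controls had 14, 12 and 30 counts, CoCl2 libraries 4, 3 and 0 counts, and OD libraries 5, 5 and 3 counts. The gene passed the filter on low counts through these controls only, which selects for a high control level. The fitted changes of -2.35 (SE 0.51) and -1.94 (SE 0.43) are given as a description. No difference in response between the lines was called (HT-29 minus Caco-2, -0.87, SE 0.63, and -0.72, SE 0.53).

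SLC5A1, the gene of the sodium-glucose cotransporter, moved less than the GLUT genes above. In HT-29, where it is abundant, controls held 47.6, 48.8 and 49.9 CPM, CoCl2 libraries 59.5, 56.5 and 61.5 CPM, and OD libraries 59.5, 60.1 and 59.3 CPM. All treated libraries lay above the controls, by log2 fold changes of only 0.27 (SE 0.05, FDR 3.4e-05) and 0.29 (SE 0.05, FDR 1.9e-05), neither of them called. With library size alone as scaling, the CoCl2 value turned to -0.36 (FDR 7.7e-07). That scaling moved the median gene by -0.63, so the direction of SLC5A1 with CoCl2 is relative to the other genes. In Caco-2, controls had 25, 30 and 18 counts, CoCl2 libraries 38, 42 and 44 counts, and OD libraries 37, 48 and 61 counts. SLC5A1 was called with OD at 1.03 (SE 0.28, FDR 0.0032) and not with CoCl2 at 0.85 (SE 0.28, FDR 0.0109). The OD call was lost without replicate 3 (0.65, FDR 0.111), with library size alone (0.88) and in limma (0.31), and the agents differed by -0.18 (SE 0.26, FDR 0.58).

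SLC2A6 encodes GLUT6, an intracellular transporter, and it was the member that separated the agents most. In HT-29, controls held 2.71, 2.90 and 1.77 CPM, CoCl2 libraries 1.57, 1.80 and 1.24 CPM, and OD libraries 15.4, 15.4 and 11.9 CPM. The OD libraries stood apart, and control and CoCl2 libraries overlapped. SLC2A6 rose by 2.58 (SE 0.15, FDR 3.8e-14) with OD, and the CoCl2 value was -0.61 (SE 0.25, FDR 0.028, not called). With library size scaling alone the latter became -1.24 and was called. In Caco-2, controls had 37, 49 and 51 counts, CoCl2 libraries 12, 8 and 23 counts, and OD libraries 39, 53 and 59 counts. Here only CoCl2 libraries were set apart, below the others. SLC2A6 fell by 1.61 (SE 0.32, FDR 9.4e-05) with CoCl2 and was not called with OD at 0.16 (SE 0.26, FDR 0.64). CoCl2 was thus under OD in both lines, by log2 differences of -3.19 (SE 0.18, FDR 1.2e-14) in HT-29 and -1.77 (SE 0.31, FDR 4.5e-05) in Caco-2. The OD response was larger in HT-29 by 2.39 (SE 0.30, FDR 5.5e-08).

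SLC2A10 and SLC2A12 encode GLUT10 and GLUT12, and both were expressed chiefly in HT-29. For SLC2A10 in HT-29, controls held 8.13, 9.68 and 8.94 CPM, CoCl2 libraries 0.971, 1.18 and 1.48 CPM, and OD libraries 7.55, 8.55 and 6.60 CPM. CoCl2 libraries lay far below both other groups, which overlapped. SLC2A10 fell by 2.89 (SE 0.18, FDR 5.3e-14) with CoCl2 and was at -0.24 (SE 0.12, FDR 0.0653) with OD. In Caco-2 it had 24, 20 and 11 counts in controls, 6, 2 and 3 with CoCl2 and 18, 10 and 4 with OD, and it passed the filter through the controls, with no CoCl2 library and 1 OD library past the limit of the filter. The fitted values of -2.19 (SE 0.57) with CoCl2 and -0.74 (SE 0.46) with OD are therefore a description. For SLC2A12 in HT-29, controls held 6.07, 5.47 and 5.14 CPM, CoCl2 libraries 9.26, 10.2 and 8.396 CPM, and OD libraries 18.7, 19.1 and 18.5 CPM. The 3 groups were separate, with OD the highest. SLC2A12 rose by 1.77 (SE 0.10, FDR 1.1e-14) with OD, and the CoCl2 value of 0.76 (SE 0.12, FDR 1.16e-06) was under the fold threshold. CoCl2 was under OD by a log2 difference of -1.01 (SE 0.10), a call lost in limma (-0.76), with RLE scaling (-0.99) and without replicate 3 (-0.96). In Caco-2, SLC2A12 stayed at 3 to 16 counts in each library and went untested.

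SLC2A13 encodes HMIT, which carries myo-inositol with protons. In HT-29, controls held 2.00, 2.08 and 2.103 CPM, CoCl2 libraries 4.18, 4.22 and 4.28 CPM, and OD libraries 3.00, 3.32 and 3.14 CPM. The groups did not overlap, but the CoCl2 value of 1.03 (SE 0.17, FDR 2.87e-06) was only just past the fold threshold, and 4 alternatives ended the call, with library size alone giving 0.40. The OD value was 0.60 (SE 0.16, FDR 0.00214). Caco-2 libraries held 25 to 65 counts of SLC2A13, the groups overlapped and neither agent gave a call (-0.38, SE 0.28, and 0.11, SE 0.26). The difference between the lines in the CoCl2 response was called at 1.31 (SE 0.31, FDR 0.00072).

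**Figure D2:**
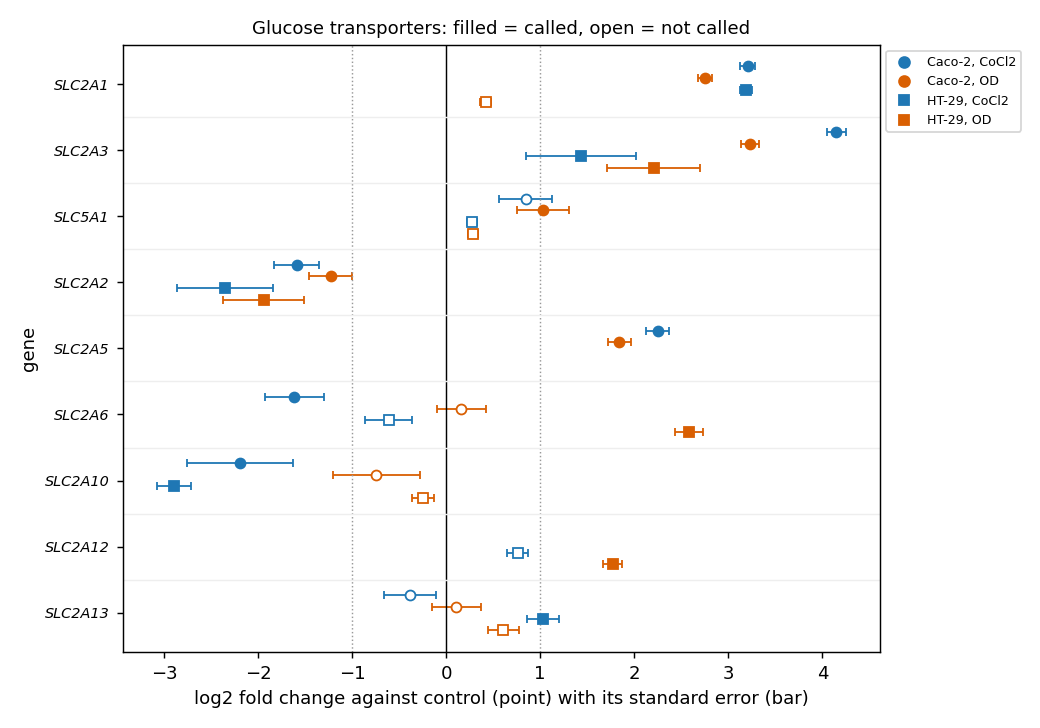
Log2 fold change against control (horizontal axis) with its standard error (bars) for each transporter in 4 comparisons, circles for Caco-2 and squares for HT-29, blue for CoCl2 and orange for OD. Filled symbols are called genes, and dotted lines mark a log2 fold change of 1 in each direction. SLC2A1 lay between 2.75 and 3.20 in all but the OD comparison of HT-29, at 0.42, and SLC2A6 was at 2.58 with OD in HT-29.

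Counted together, 6 of 8 transporters tested in Caco-2 were called with CoCl2 against 23.4% of all genes, with 3 higher (9.13% of all genes) and 3 lower (14.2%). With OD it was 5 of 8 against 11.7%, with 4 higher (4.43%) and 1 lower (7.27%). In HT-29, 5 of 8 were called with CoCl2 against 41.3% of all genes, with 3 higher (17.4%) and 2 lower (23.9%). OD gave 4 of 8 against 17.1%, with 3 higher (9.5%) and 1 lower (7.57%). The lower calls include SLC2A10 with CoCl2 in Caco-2 and SLC2A2 with both agents in HT-29, which passed the filter through the controls. Without these genes, 5 of 7 were called with each agent in Caco-2, 2 of them lower with CoCl2 and 1 with OD, and in HT-29 4 of 7 were called with CoCl2, 1 of them lower, and 3 of 7 with OD, all higher. The genes were chosen with results of these data known, so the counts are a description. Between the agents, 1 of 8 was called in Caco-2 (11.7% of all genes) and 4 of 8 in HT-29 (29.9%). By FDR alone, without the fold threshold, 8 of 8 in HT-29 passed with CoCl2 (82.8% of all genes), 7 of 8 with OD (68.8%), and 4 of 8 between the agents in Caco-2 (49.6%). Between the lines, 2 of 9 responses to CoCl2 (SLC2A3 and SLC2A13, 21.6% of all genes) and 2 of 9 responses to OD (SLC2A1 and SLC2A6, 15.2%) were called as different. The 9 include SLC2A5, with 0 or 1 count in HT-29, and SLC2A12, with 3 to 16 counts in Caco-2. Such counts left little room for a call of either. CoCl2 and OD share their controls in each line, so their fold changes are not independent.

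Per length, the transporter mRNA pool increased in every treated group and remained in few genes. The summed RPKM of the 9 genes in Caco-2 was 99.0 ± 1.67 in controls, 1344 ± 77.8 with CoCl2 and 787.8 ± 85.9 with OD, which is 13.6 and 7.96 times the control mean. In HT-29 the sum was 121 ± 5.85 in controls, 988.9 ± 37.3 with CoCl2 and 165.4 ± 17.1 with OD, or 8.17 and 1.37 times the control mean. The groups did not overlap in either line. SLC2A3 made up 55.9% ± 0.829 of the Caco-2 sum in controls, 72.9% ± 0.934 with CoCl2 and 65.9% ± 2.76 with OD, and SLC2A1 made up 38.7% ± 0.921, 26.3% ± 0.929 and 32.9% ± 2.60. In HT-29, SLC2A1 alone made up 88.5% ± 0.544 of the sum in controls, 98.5% ± 0.028 with CoCl2 and 86.6% ± 1.21 with OD. SLC5A1, by share of the sum, was 7.98% ± 0.251, 1.18% ± 0.0587 and 7.18% ± 0.734 in the same order.

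**Figure D3:**
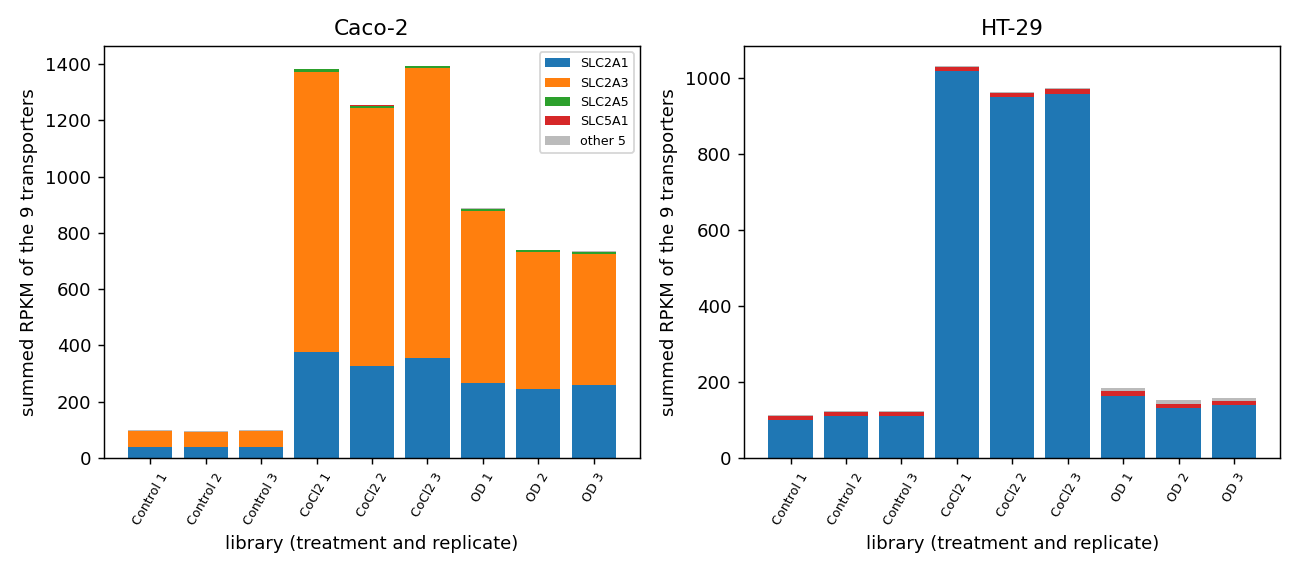
Summed RPKM of the 9 transporters (linear axis from 0, own range per line) in each library, split into SLC2A1, SLC2A3, SLC2A5, SLC5A1 and the other 5 genes. In Caco-2 the pool was shared by SLC2A3 and SLC2A1 and rose to a mean of 1344 with CoCl2, and in HT-29 it was nearly all SLC2A1 and rose to 988.9 with CoCl2 but only to 165.4 with OD.

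The genes whose pattern was most like that of 4 members were listed by Pearson's r of log2 CPM less the mean of the same line's controls, over 18 libraries and 9459 genes. The libraries of a line share their controls and depth, so r is a description. SLC2A2 had 0 to 5 counts in treated HT-29 libraries, SLC2A3 3 to 140 in HT-29 and SLC5A1 18 to 61 in Caco-2. Their r values thus rest in part on low counts. For SLC2A1 the nearest genes were YEATS2 (r = 0.998), TSC22D2 (0.994), the glycolytic enzyme gene ENO1 (0.992), MXI1 (0.991) and PDK1 (0.989), which encodes a kinase of pyruvate dehydrogenase. For SLC2A3 they were TMEM92 (0.92), TGFB1 (0.919), TICRR, BNIP3 and MIDEAS (0.918 each). For SLC2A2 they were IFT80 (0.926), MALRD1 (0.922), PSMA3-AS1 (0.916), HEATR3 (0.913) and CRYZL2P (0.912). For SLC5A1 they were RGP1 (0.932), NOL3 (0.922), SPAG4 (0.912), PLEC and FANCG (0.906 each).

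Other sugar genes were taken from lists written down with earlier results known. Of 13 further hexose and polyol transporters, 9 were tested in Caco-2, where 2 were called with CoCl2 (23.4% of all genes) and 1 with OD (11.7%), all higher. Of the 7 tested in HT-29, 2 were higher and 2 lower with CoCl2 (41.3% of all genes called) and 2 were lower with OD (17.1% called). These include SLC5A11, which passed the filter through its CoCl2 libraries only. They also include SLC2A9, which passed through its controls only (16 to 31 counts, against 5 to 7 with CoCl2 and 5 to 10 with OD). Calls of both genes are therefore a description. Their median log2 fold change in Caco-2 was -0.19 with CoCl2 and -0.10 with OD, and in HT-29 it was -0.05 and 0.23. SLC5A3, a sodium and myo-inositol cotransporter gene, rose with CoCl2 by 1.13 (SE 0.09) in Caco-2 and 2.26 (SE 0.05) in HT-29. SLC5A9, which encodes the mannose and glucose transporter SGLT4, fell in HT-29 by 2.497 (SE 0.16) with CoCl2 and by 1.66 (SE 0.13) with OD. SLC5A11, a gene for another inositol transporter, had 0 or 1 count in HT-29 controls and 12 to 24 with CoCl2, at least 7.87-fold higher when controls are set to the floor of 3 counts per library. SLC2A4, the insulin responsive GLUT4 gene, had at most 12 counts in any library, SLC2A7 at most 8, SLC5A4 at most 3 and SLC5A10 at most 4. SLC5A2, the gene of the renal SGLT2, had 9 to 61 counts in Caco-2 and 0 to 5 in HT-29, and SLC2A14 had 0 to 5 in HT-29. SLC50A1, on the same list, was at 37.9 RPKM in Caco-2 controls, near SLC2A1 at 38.3 RPKM. In HT-29 controls SLC50A1 was at 18.5 RPKM, against 107 RPKM for SLC2A1. SLC50A1 was not called with either agent in either line, and is named for its control level.

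Of 13 genes that trap hexoses or lead fructose into metabolism, 10 were tested in each line. With CoCl2, 4 were higher (9.13% of all genes) and 4 lower (14.2%) in Caco-2, and 5 were higher (17.4%) and 3 lower (23.9%) in HT-29. With OD, 2 rose in Caco-2 (4.43%), 3 rose in HT-29 (9.5%), and none was called lower by edgeR, although 7 and 9 of the 10 had an unadjusted p under 0.05 in one direction or the other. The median log2 fold change in Caco-2 was -0.14 with CoCl2 and -0.29 with OD, and in HT-29 it was 0.79 and 0.50. HK2, a hexokinase gene, rose in all 4 comparisons, in Caco-2 by 3.56 (SE 0.08) with CoCl2 and 3.19 (SE 0.08) with OD, and in HT-29 by 4.52 (SE 0.06) and 1.10 (SE 0.06). GCKR, which encodes a regulatory protein of hexose phosphorylation, rose in HT-29 by 3.37 (SE 0.12) and 2.59 (SE 0.13), and by 1.06 (SE 0.19) with CoCl2 in Caco-2. KHK, the fructokinase gene, fell with CoCl2 by 1.44 (SE 0.23) in Caco-2 and by 2.38 (SE 0.43) in HT-29, from 24 to 32 counts in the HT-29 controls to 1 to 7. HK3, another hexokinase gene, was not tested in either line.

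The 4 sugar hydrolase genes of the brush border, which free glucose and fructose for uptake, were tested in Caco-2, and 3 fell with CoCl2 (14.2% of all genes were called lower), with a list median of -1.40 on the log2 scale against -0.24 with OD. TREH (trehalase) fell by 1.94 (SE 0.44), LCT (lactase) by 1.47 (SE 0.17) and SI (sucrase-isomaltase) by 1.33 (SE 0.11), and MGAM (maltase-glucoamylase) was at -0.73 (SE 0.19, not called). With OD no hydrolase was called in Caco-2 by edgeR, and 3 of 4 had an unadjusted p under 0.05, LCT at 0.36 (SE 0.14) among them. In HT-29, where LCT had at most 2 counts and TREH was not tested, MGAM had 13 to 18 counts in controls and 3 to 5 with OD. It passed the filter through the controls only, so the fitted fall of 1.65 (SE 0.42) with OD is a description. In HT-29 the list medians over the 2 tested hydrolases, MGAM among them, were -0.64 and -1.21 and share this limit. Of 4 sodium pump genes, which maintain the gradient that SGLT1 uses, FXYD3 was the member called, higher with CoCl2 in Caco-2 by 1.69 (SE 0.13), and the list had medians of 0.67 (CoCl2) and 0.44 (OD) in Caco-2, and of 0.62 and 0.26 in HT-29.

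Among 18 regulators of glucose transporters, 17 were tested in each line. In Caco-2, 1 was higher and 1 lower with CoCl2 (23.4% of all genes called) and none was called with OD by edgeR, although 10 had an unadjusted p under 0.05. In HT-29, 1 was higher and 4 lower with CoCl2 (41.3% of all genes called), and 1 higher and 1 lower with OD (17.1% called). The list medians lay between -0.19 and 0.10 in the 4 comparisons. The oncogene MYC rose by 1.23 (SE 0.09) with CoCl2 in Caco-2 and fell in HT-29 by 1.87 (SE 0.05) with CoCl2 and by 1.12 (SE 0.05) with OD. MLXIPL, which encodes the glucose responsive factor ChREBP, fell with CoCl2 by 1.14 (SE 0.15) in Caco-2 and by 1.29 (SE 0.34) in HT-29, and rose by 1.21 (SE 0.22) with OD in HT-29. CDX2, an intestinal transcription factor gene, and SGK1, a kinase gene, fell with CoCl2 in HT-29 by 1.46 (SE 0.14) and 1.36 (SE 0.07).

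**Figure D4:**
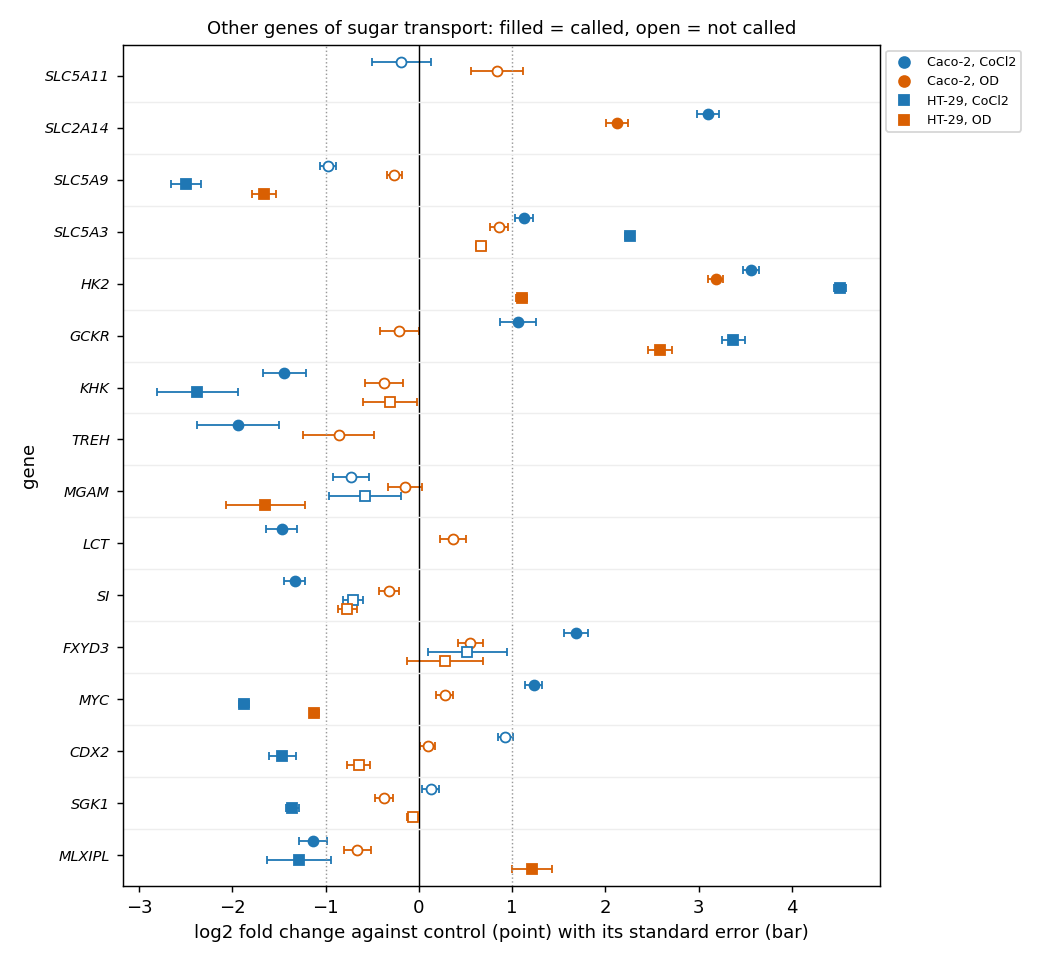
Log2 fold change against control (horizontal axis) with its standard error (bars) for further genes of sugar transport and entry, with symbols and colors as in the plot of transporter fold changes. A comparison is missing where the gene was not tested or its control or treated group lay at the floor. HK2 rose in all 4 comparisons, from 1.10 to 4.52, and the hydrolases TREH, LCT and SI fell with CoCl2 in Caco-2.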

How the data were processed

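mRNA of 18 libraries was analysed, and the 18 miRNA libraries of the series were not used here. Per the study's methods and the submitters' processing notes, single-end reads were trimmed with cutadapt 2.10 and aligned with STAR 2.7.5b to GRCh38, with genes from GENCODE. The counting tool and its strand setting are not given in the sources used here. The authors deposited raw counts per gene and a table of log2 values, found to be log2 of RPKM plus 1 and set to 0 where a gene failed the authors' filter in a line. The main tests used the counts, and 0 per-sample columns lacked a sample.

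Each line was fitted alone over its 9 libraries in edgeR 4.0.16 (R 4.3.3), with TMM scaling, filterByExpr (minimum count 10), a coefficient per group and the two-sided quasi-likelihood F test. Line differences (HT-29 minus Caco-2) and the control comparison used all 18 libraries. P-values were adjusted by Benjamini-Hochberg over all genes tested. The study's thresholds were kept (FDR under 0.05, absolute log2 fold change over 1), and its tool, DESeq2 1.42.0, was an alternative. CPM used TMM library sizes of the line. RPKM divided CPM by a gene length recovered from the deposited log2 table, which varied by 2.91 to 7.03% between libraries. Totals of 12925719 to 22332639 counts set the precision, and floors cover counting error only. In a chi-square of counts, all replicates differed by more than sampling noise (1.96 to 12.6 per degree of freedom). Scripts were tested on simulated data.

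The members and lists were chosen with earlier results of these data known. The text names all 9 members, up to 4 called genes of each list by largest change with those at the floor (some are not reported here), and the 5 genes most like 4 members (mean of at least 10 CPM, pseudocount 0.5). Alternatives were RLE scaling, library size alone, no filter, DESeq2, limma-trend 3.58.1 on the deposited log2 values, SLC2A3 summed with SLC2A14, all libraries in 1 fit, a replicate block, FDR alone and leaving out each replicate.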

Additional observations from a re-analysis of the deposited data

Results flagged for a closer look

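In 4 cases the response of a transporter differed between the lines in a test of the difference itself (an interaction term in edgeR over 18 libraries). SLC2A1 with OD differed by -2.35 on the log2 scale (HT-29 minus Caco-2), and SLC2A6 with OD by 2.39. SLC2A3 with CoCl2 differed by -2.82, with 3 to 75 counts in the control and CoCl2 libraries of HT-29. SLC2A13 with CoCl2 differed by 1.31, where the HT-29 groups were separate and the Caco-2 groups overlapped. Line and culture state cannot be told apart in these differences.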

How the results depend on the processing

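Of 768 values of 75 transporter results under alternatives, 714 kept their direction and side of the threshold, 26 gained a call, 16 lost one and 12 changed sign. In limma-trend, run on the log2 table, where genes set to 0 in a line could not be fitted, the called transporters fell in Caco-2 to 3 with CoCl2, 3 with OD and 0 between the agents, and in HT-29 to 2 with each agent. With FDR alone they were 4 between the agents in Caco-2, and in HT-29 8 for CoCl2 and 7 for OD. Between the agents in Caco-2 the count was 2 with library size alone, without a filter and in the fit of all 18 libraries.

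Leaving out each replicate in turn gave 6 to 7 and 4 to 5 calls for CoCl2 and OD in Caco-2, 1 to 2 between the agents there, 4 to 5 and 4 in HT-29, 3 to 5 between the agents there, 2 to 3 and 2 to 4 for the line differences and 7 for the controls. The difference count for OD reached 4 without replicate 2, where SLC2A3 and SLC5A1 joined, and the Caco-2 count between agents reached 2 without replicate 1, where SLC2A3 joined.

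Values that changed sign were small or rested on few counts. With library size alone, SLC2A13 was at -0.043 with OD in Caco-2 and at -0.072 between the agents in HT-29, and SLC5A1 at -0.36 with CoCl2 in HT-29. Between the agents in HT-29, SLC5A1 was at 0.014 with RLE, at 0.00065 in DESeq2 and from -0.043 to 0.025 over the fits that leave out a replicate. Over such fits, SLC2A13 with OD in Caco-2 ran from -0.12 (without replicate 2) to 0.27, and SLC5A1 between the agents in Caco-2 from -0.40 to 0.20 (without replicate 3). SLC2A2 in the line difference for CoCl2 ran from -1.72 to 0.20 (without replicate 3), SLC2A5 there from -4.47 to 0.20 (without replicate 1, on 0 or 1 count in HT-29), and SLC2A6 between the controls from -0.15 (without replicate 3) to 0.51. The causes were not tested.

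Over all genes tested in a line, replicate numbers gave no sign of pairing. That does not exclude pairing for a single gene, and SLC2A3 in HT-29 kept the same order of replicates in every group. Deviations of same-numbered libraries from their group means correlated at -0.083 to 0.094 in Caco-2 and -0.047 to 0.030 in HT-29. With a replicate block the counts of called transporters were 6 (CoCl2), 5 (OD) and 1 (between agents) in Caco-2, then 5, 4 and 4 likewise for HT-29, 2 and 3 for the line differences (SLC2A3 with OD joined, -1.12) and 7 for the controls, where SLC2A6 turned to -0.24. Not every library correlated best with its own number.

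Library size scaling alone moved the median gene in HT-29 by -0.63 (CoCl2) and -0.14 (OD), and in Caco-2 by -0.32 and -0.15. Depth limits the members with under 20 counts in a library, which are SLC2A2, SLC2A6, SLC2A10, SLC2A12 and SLC5A1 in Caco-2 and SLC2A2, SLC2A3, SLC2A5, SLC2A6 and SLC2A10 in HT-29.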
